A study of Mus musculus with 96 samples.

Results

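The 41 genes described here encode plasma proteins that hepatocytes secrete: carriers such as albumin, clotting factors and their regulators, apolipoproteins, complement proteins and other glycoproteins. They were taken as a named list, chosen with earlier results of these data known. Of the 41, 38 had a probe set of their own among the 18193 genes of the array. C3 and Gc had no probe set listed under their symbols, and the probe set of Trf (transferrin) was shared with another gene, so these 3 were not measured; complement C5 is listed on the array as Hc. RNA came from whole liver of female and male CD-1 mice, an outbred stock, after 2 or 7 days on a diet without PB (dose 0) or with 1 of 5 doses of it: a low pair of 0.15 and 1.5 mg/kg-day, a middle dose of 15, and a high pair, 75 and 150. Each of the 24 groups of sex, dose and day held 4 arrays, 96 in all, and the dose 0 group of the same sex and day served as control. The labels do not expand PB, which in work on the receptor CAR commonly stands for phenobarbital. The sample titles attach ppm to the doses where the design text has mg/kg-day; the latter is used here. The labels do not say whether each array is a separate mouse, so p-values measure only the spread between these samples.

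Hepatocytes make most of the protein of blood plasma, and their secreted products are among the most abundant transcripts of the liver. The nascent chains enter the endoplasmic reticulum, where they are folded, glycosylated and, for several clotting factors, carboxylated with vitamin K as cofactor, and leave in coated vesicles; apolipoprotein B is loaded with lipid on the way. Their genes are known to depend on the liver factors HNF1, HNF4A and C/EBP. Drugs that activate CAR are known to enlarge the liver and to expand the endoplasmic reticulum of hepatocytes.

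Deposited values are log2 levels, and across arrays the median lay between 5.35 and 5.44 and the highest value between 14.86 and 14.97. Cyp2b10, the classic target of CAR, was 43.3-, 45.8-, 68.9- and 66.7-fold higher at 150 than at 0 in females on days 2 and 7 and in males on days 2 and 7. In males on day 2, the library labelled replicate 1 at 15 had Cyp2b10 at 13.66 against 11.07 to 11.29 in the other 3 of its group. The library labelled replicate 1 at 75 had 10.98 against 13.19 to 13.36. Each thus had a Cyp2b10 level near that of the other dose; whether the 2 were exchanged was not tested. Counts and calls at 15 and 75 in males on day 2, and the averages and slopes that use them, are given with and without these 2 libraries.

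The upstream sequences of 7 members are shown because the results turn on these genes: F5, F2 and Apoh fell, F10 rose, C9 and C8b differed between the sexes, and Alb stayed near the top of the scale. Each run is the 150 bases before the transcription start in the RefSeq annotation of GRCm38.p6, read 5′ to 3′ on the gene's strand, and capitals mark a match to HNF1 (GTTAATNAT) or C/EBP (TTGCNNAA) on either strand.
F5 (chr1:164151685-164151834, plus strand): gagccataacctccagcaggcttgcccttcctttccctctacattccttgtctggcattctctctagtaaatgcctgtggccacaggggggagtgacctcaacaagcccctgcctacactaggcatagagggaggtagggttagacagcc
F2 (chr2:91636458-91636607, minus strand): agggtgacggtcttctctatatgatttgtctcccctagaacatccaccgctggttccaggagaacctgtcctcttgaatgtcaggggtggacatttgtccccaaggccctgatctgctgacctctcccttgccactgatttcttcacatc
Apoh (chr11:108395147-108395296, plus strand): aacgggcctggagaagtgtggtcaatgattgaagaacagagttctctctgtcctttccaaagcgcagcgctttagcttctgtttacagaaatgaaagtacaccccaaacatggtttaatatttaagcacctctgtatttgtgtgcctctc
F10 (chr8:13037158-13037307, plus strand): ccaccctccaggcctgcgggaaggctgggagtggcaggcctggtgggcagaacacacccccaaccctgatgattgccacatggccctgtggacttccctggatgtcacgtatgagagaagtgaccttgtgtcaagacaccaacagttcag
C9 (chr15:6445196-6445345, plus strand): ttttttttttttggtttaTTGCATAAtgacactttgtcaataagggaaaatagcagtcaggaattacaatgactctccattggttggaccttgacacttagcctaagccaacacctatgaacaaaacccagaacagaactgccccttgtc
C8b (chr4:104766167-104766316, plus strand): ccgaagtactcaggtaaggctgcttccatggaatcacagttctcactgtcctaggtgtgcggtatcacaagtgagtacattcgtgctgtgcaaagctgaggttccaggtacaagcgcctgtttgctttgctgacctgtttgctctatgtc
Alb (chr5:90460720-90460869, plus strand): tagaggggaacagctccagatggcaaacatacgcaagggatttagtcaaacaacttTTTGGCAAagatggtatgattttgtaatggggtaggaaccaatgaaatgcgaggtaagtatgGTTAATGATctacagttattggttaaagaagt
The Alb run held an HNF1 match from 32 to 24 bases before the start and a C/EBP match from 94 to 87 bases before it, and the C9 run held a C/EBP match from 132 to 125 bases before it. Promoter windows of 300 bases, from 250 before to 50 after the start, were given for 31 of the 38 members, as 37 windows. HNF1 letters were in 10.8% of member windows (Alb, Cp, F13b and Hc) and in 0.801% of all 32851 windows. C/EBP letters were in 29.7% of member windows against 10.8% of all, TATAAA in 27% against 13.6%, and the HNF4A letters CAAAGTCCA in 0 of 37 against 0.475% of all. A match is a description of the letters and says nothing of what binds there, and no match says only that these letters were not in the window.

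The first question was which plasma protein genes responded at the highest dose. Averaged over both sexes and both days at 150, 23 of 38 members fell and 3 rose, where 9.42% of all genes fell and 8.27% rose (limma, adjusted p below 0.05). The changes were small: from -0.38 for F11 to 0.30 for Apoa4 on the log2 scale. The median change of the members was -0.11, against -0.01 over all genes, and 32 of 38 lay below 0. The 4 separate comparisons with dose 0 share no array. The same 28 members lay below 0 in all 4 of them, or 73.7% of members against 18.1% of all genes. Another 5 members lay above 0 in all 4 (F7, F10, F13b, Apoa4 and Cp), or 13.2% against 12.3% of all genes. Every member was brighter than at least 92.9% of genes, and genes of like level were not compared. Other hepatocyte genes leaned the same way in the average. Of 49 other secreted proteins 40 lay below 0 (median -0.09), as did 10 of 10 hepatocyte enzymes (median -0.10). The falls are therefore not read as particular to the members. Because whole liver was measured, fewer hepatocytes and less RNA per hepatocyte cannot be told apart.

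**Figure D1:**
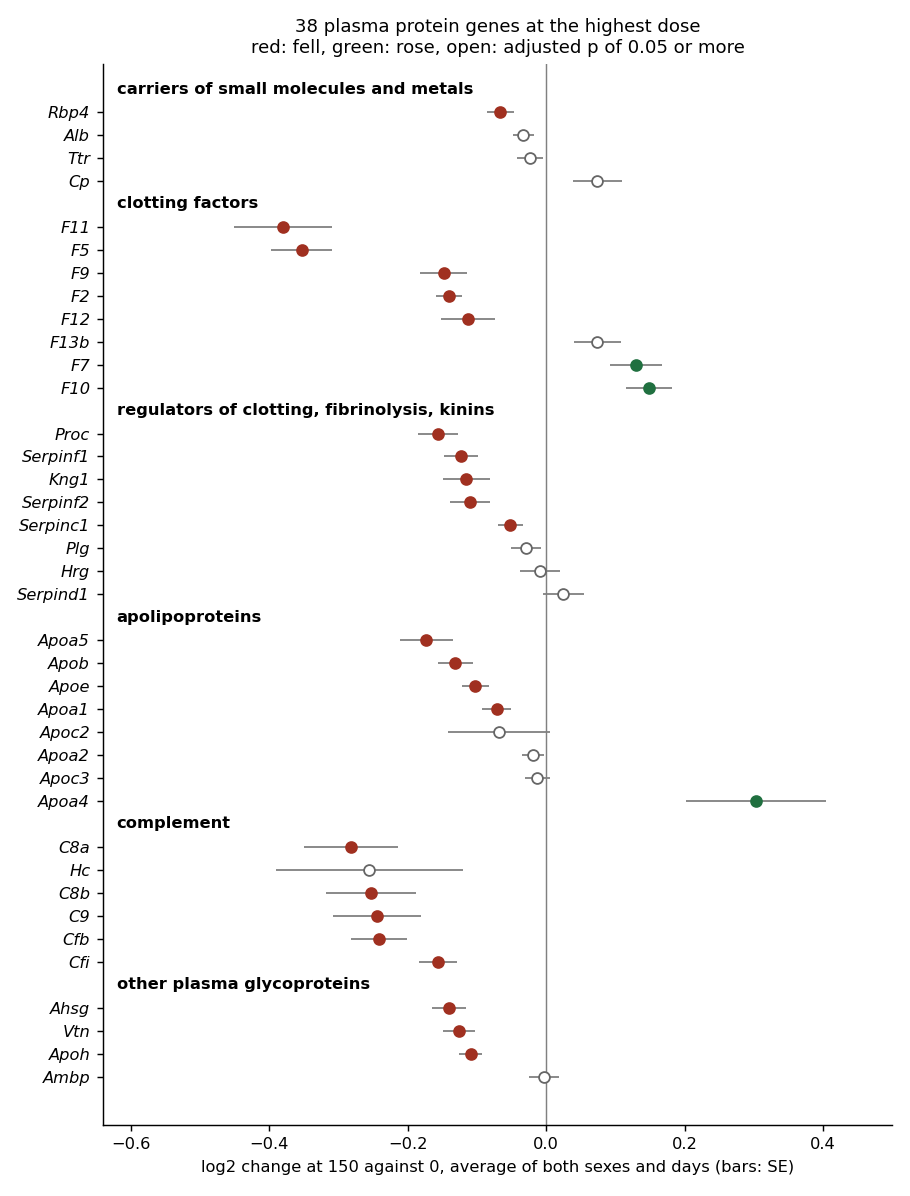
Log2 change at 150 against 0, averaged over both sexes and both days, for the 38 measured plasma protein genes grouped by role; points are limma estimates, bars their standard errors, and filled points passed an adjusted p of 0.05. Most points lie left of 0, with F11 at -0.38 and F5 at -0.35 farthest left and F7, F10 and Apoa4 the 3 rises.

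In females on day 2, 11 members fell and 0 rose (2.14% and 3.32% of all genes), and in females on day 7, 4 fell and 0 rose (0.923% and 1.52%). In males on day 2, 6 fell and 1 rose (2.4% and 2.5%), and on day 7, 1 fell and 0 rose (0.835% and 2.2%). Over all genes in males on day 7, 152 fell and 401 rose as deposited, 253 and 355 with arrays centred on their median, and 309 and 400 after quantile normalization. At an unadjusted p below 0.05, limma called 18, 17, 18 and 12 members in either direction in the 4 comparisons, and 16.2%, 13.7%, 16.1% and 14.9% of all genes. These single comparisons rest on the spread shared by all 96 arrays: with only the 8 arrays of a comparison fitted, 0, 0, 1 and 0 members fell and 0 rose. For this refit and those below, the share of all genes called is not given here. The losses are therefore not read as particular to the members. With any 1 of the 32 arrays left out of the average, 22 or 23 members fell and 2 or 3 rose. The single counts were less stable: in females on day 2, 7 members fell without treated replicate 1 or 2 and 8 to 13 without any other array. In females on day 7, 0 to 3 fell whichever array was left out, with 0 without control replicate 1. Without treated replicate 1 in males on day 2, 2 fell, and 4 to 6 without any other; 0 rose there without control replicate 2 or treated replicate 2 or 4. For males on day 7, 0 fell without control replicate 4 or treated replicate 1, 2 fell without treated replicate 3, and 2 rose without control replicate 1 or treated replicate 4.

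**Figure D2:**
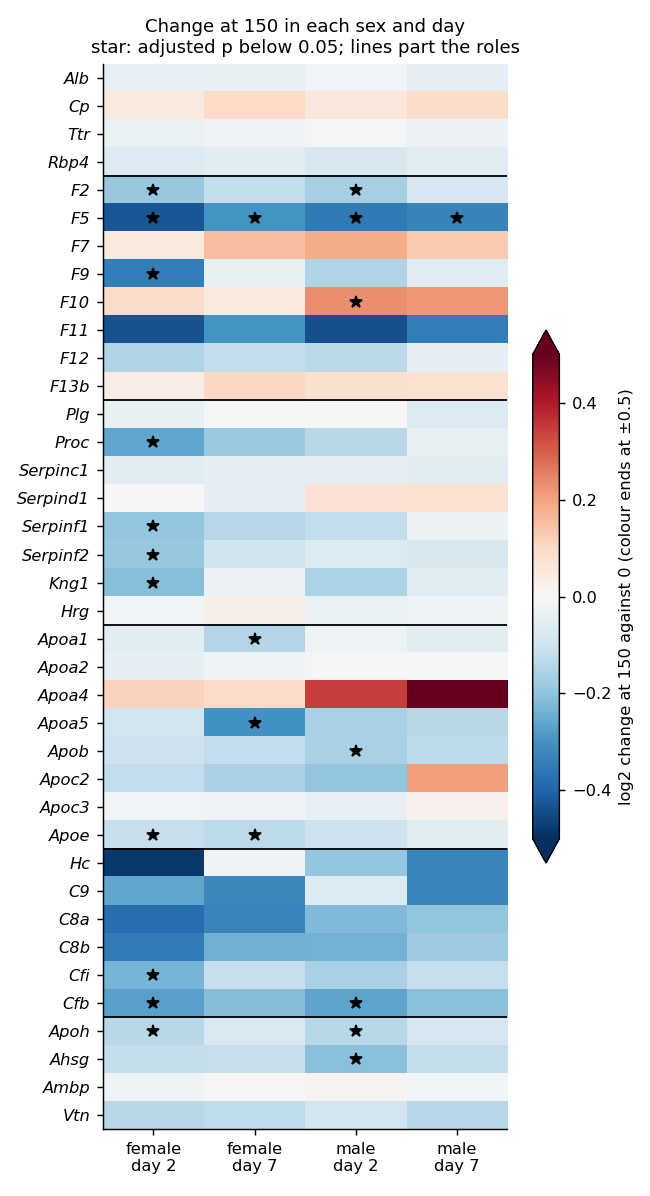
Log2 change at 150 against 0 (colour, ending at ±0.5) for each of 38 genes (rows, parted by role) in each sex and day (columns); stars mark adjusted p below 0.05 in limma. F5 has a star in all 4 columns, F2, Apoh, Cfb and Apoe in 2 each, and F10 the 1 star for a rise.

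Clotting factors held the largest falls and both of the rises outside the apolipoproteins. On average at 150, 5 of 8 fell and 2 rose (9.42% and 8.27% of all genes). F5, the cofactor that speeds the activation of prothrombin, fell in all 4 comparisons. In females on day 2 its level was 11.89, 11.97, 11.99 and 12.05 at dose 0 and 11.41, 11.46, 11.51 and 11.82 at 150. All 4 treated arrays lay below all 4 controls, and the change was -0.43 ± 0.088 (SE; adjusted p = 0.000406, limma; lower in 4 of 4 arrays). On day 7 in males the controls were 11.85, 11.89, 11.97 and 12.05, and the treated arrays lay close together below them at 11.58, 11.61, 11.61 and 11.63 (change -0.33 ± 0.088, adjusted p = 0.0169). In males on day 2 the change was -0.35 (adjusted p = 0.0067), with 1 treated array at 11.78 inside the range of the controls, 11.76 to 11.99. In females on day 7, where controls ran from 11.95 to 12.22 and treated arrays from 11.67 to 11.84, the change was -0.30 (adjusted p = 0.0482). That last call was lost when any array but treated replicate 3 was left out (adjusted p up to 0.236). The calls in males were lost without treated replicate 1 on day 2 (adjusted p = 0.0607) and without control replicate 4 or treated replicate 1 on day 7 (up to 0.0828). A second probe set of F5 changed by -0.30, -0.44, -0.07 and -0.37 in females on days 2 and 7 and males on days 2 and 7.

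F2 encodes prothrombin, the precursor of the enzyme that forms fibrin. In females on day 2 its level was 13.82, 13.86, 13.87 and 13.88 at dose 0 and 13.60, 13.62, 13.68 and 13.75 at 150, a change of -0.19 ± 0.038 (adjusted p = 0.000306, limma). In males on day 2 it was 13.73, 13.75, 13.79 and 13.81 at dose 0 and 13.57, 13.61, 13.61 and 13.63 at 150, a change of -0.17 ± 0.038 (adjusted p = 0.00272). On day 7 the treated arrays also lay below all controls in both sexes, but the changes of -0.12 in females and -0.085 in males did not pass the test (adjusted p = 0.0755 and 0.253). F9, the factor whose loss causes haemophilia B, fell in females on day 2, from 12.02, 12.06, 12.08 and 12.23 to 11.63, 11.64, 11.79 and 11.96. The groups did not overlap, and the change was -0.35 ± 0.069 (adjusted p = 0.000247). In the other 3 comparisons F9 changed by -0.04, -0.15 and -0.06, none past the test. F11 and F12, which belong to the contact pathway, fell only in the average (-0.38 ± 0.071, adjusted p = 2.74e-05, and -0.11 ± 0.039, adjusted p = 0.032); in single comparisons F11 had adjusted p-values of 0.0537 and 0.0579 on day 2, and it was called in males on day 2 once the 2 doubted libraries were left out of the shared spread.

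F10 and F7 went the other way. F10 is activated in either branch of clotting and, bound to activated F5, cleaves prothrombin. Its level in males on day 2 was 12.55, 12.68, 12.69 and 12.71 at dose 0 and 12.83, 12.84, 12.94 and 12.95 at 150, with no overlap. The change was 0.23 ± 0.067 (adjusted p = 0.0244, limma), and it lost its call without control replicate 2 or treated replicate 2 or 4 (adjusted p up to 0.103). Levels in males on day 7 were 12.58, 12.61, 12.63 and 12.74 against 12.77, 12.83, 12.91 and 12.92, again without overlap (change 0.22, adjusted p = 0.0569). In females the groups overlapped on both days, with changes of 0.10 and 0.05. The average rose by 0.15 ± 0.033 (adjusted p = 0.000482), and 2 dimmer probe sets of F10 had averages of 0.26 and 0.24. F7, which starts clotting together with tissue factor, rose in the average alone (0.13 ± 0.038, adjusted p = 0.00909), with 4 changes between 0.05 and 0.18. F13b, the carrier subunit of the fibrin-stabilising factor, changed by 0.07 and was not called. F7 and F10 lie next to each other on chromosome 8.

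**Figure D3:**
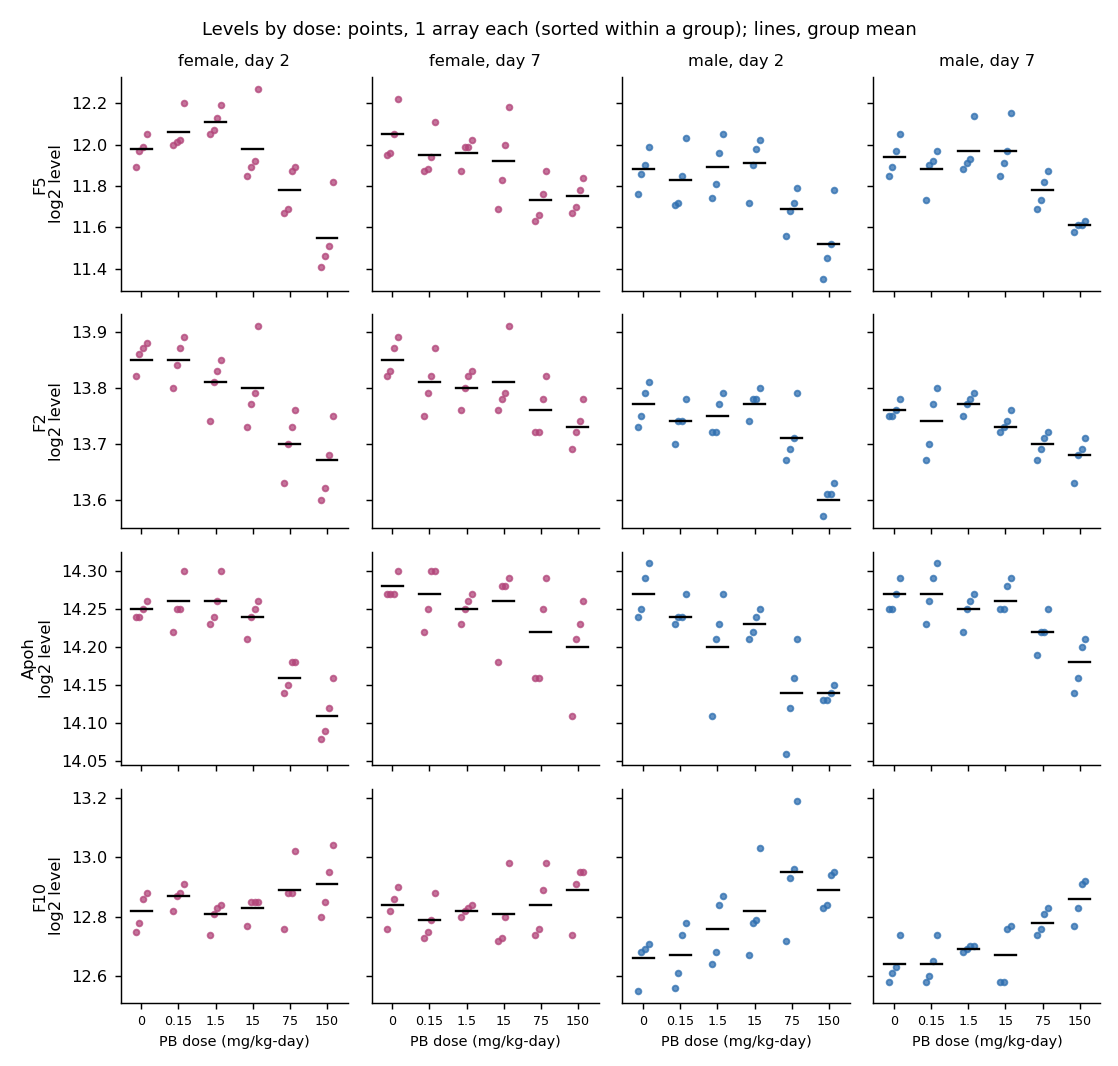
Log2 level of F5, F2, Apoh and F10 (rows; points are single arrays sorted within a group, lines group means) at 6 PB doses in mg/kg-day, by sex and day (columns). F5 in females on day 2 goes from a mean of 11.98 at dose 0 to 11.55 at 150, and F10 in males on day 2 from 12.66 to 12.89; the library labelled replicate 1 at 15 in males on day 2 is the F10 point at 13.03.

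Among the 8 members listed as regulators of clotting, fibrinolysis and kinins, 5 fell on average and 0 rose (9.42% and 8.27% of all genes). The 5 include Serpinf1, which is not known to regulate any of these. Proc, the precursor of an anticoagulant protease that inactivates F5, fell in females on day 2 from 13.02, 13.04, 13.10 and 13.18 to 12.75, 12.81, 12.82 and 12.91. No treated array reached a control, and the change was -0.26 ± 0.058 (adjusted p = 0.00126, limma). Its changes in the other 3 comparisons were -0.19, -0.14 and -0.04, none past the test. In the same comparison Serpinf1 (PEDF) fell by 0.19, Serpinf2, the main inhibitor of plasmin, by 0.19 and Kng1, the precursor of bradykinin, by 0.21 (adjusted p = 0.0087, 0.0295 and 0.0423, limma). Treated and control arrays overlapped for Kng1 and not for Serpinf1 or Serpinf2. The calls of these genes were not checked by leaving out single arrays. Serpinc1, which encodes antithrombin, fell in the average (-0.05 ± 0.018, adjusted p = 0.0272). Plg (plasminogen), Hrg and Serpind1 (a heparin-dependent thrombin inhibitor) were not called, at -0.03, -0.01 and 0.03.

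All 6 complement genes measured lay below 0 in all 4 comparisons, and 5 of 6 fell on average (9.42% of all genes). Cfb, the protease of the alternative pathway, fell on day 2 in both sexes. In males it went from 12.50, 12.56, 12.63 and 12.69 to 12.22, 12.27, 12.35 and 12.48, a change of -0.26 ± 0.080 without overlap (adjusted p = 0.0343, limma); this call was lost without any of 6 of the 8 arrays, the exceptions being control replicate 2 and treated replicate 3 (adjusted p up to 0.154). In females the highest treated array, 12.56, lay above the lowest control, 12.54 (change -0.27, adjusted p = 0.024, limma). The call of Cfb in females was not checked by leaving out single arrays. Cfi, the protease that shuts down complement, fell in females on day 2 from 13.75, 13.79, 13.80 and 13.83 to 13.51, 13.51, 13.60 and 13.62. That change was -0.23 ± 0.055 (adjusted p = 0.00254), and the groups did not overlap. C9, C8a and C8b, parts of the pore that complement inserts into membranes, fell in the average alone, by 0.24 (C9), 0.28 (C8a) and 0.25 (C8b), with adjusted p of 0.0032, 0.00127 and 0.00245. Hc (C5), which starts the assembly of that pore, averaged -0.26 ± 0.135 and was not called (adjusted p = 0.203); it varied most within groups, with a pooled SD of 0.39 and a range from 11.01 to 13.22 over the arrays.

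Of the 8 apolipoproteins, 4 fell on average and Apoa4 rose (9.42% and 8.27% of all genes). Apoa5, a regulator of triglyceride clearance, fell in females on day 7 from 13.70, 13.73, 13.78 and 13.83 to 13.21, 13.51, 13.56 and 13.56. No array overlapped, and the change was -0.30 ± 0.077 (adjusted p = 0.0138, limma); it lost its call without control replicate 1 or the treated replicate 3 at 13.21 (adjusted p up to 0.161). Apoe, a ligand of lipoprotein receptors, fell in females on day 7 by 0.13 (adjusted p = 0.0386) and on day 2 by 0.12 (adjusted p = 0.0496). Its controls on day 7 were 14.59, 14.61, 14.63 and 14.64, its treated arrays 14.37, 14.50, 14.53 and 14.55, all lower. Apoa1, the main protein of high-density lipoprotein, fell in the same livers from 14.62, 14.65, 14.65 and 14.68 to 14.44, 14.51, 14.54 and 14.54 (-0.15 ± 0.042, adjusted p = 0.0429). Both day 7 calls were lost with most single arrays left out: Apoe lost it without any array but treated replicates 1 and 2 (up to 0.292), Apoa1 without any but control replicate 3 (up to 0.175). The day 2 call of Apoe was not checked in this way.

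Apob, the structural protein of very low density lipoprotein, fell in males on day 2 from 14.02, 14.06, 14.11 and 14.11 to 13.89, 13.90, 13.91 and 13.96, without overlap (-0.16 ± 0.050, adjusted p = 0.0387, limma). It lost its call without any of 6 arrays (all but control replicate 2 and treated replicate 4; adjusted p up to 0.119). A second, dimmer probe set of Apob, with a mean of 9.16, went the other way in these livers, by 0.94, so that the mean of both probe sets was 0.39 higher; the treated arrays of the bright probe set lay below the controls in all 4 comparisons. Apoa4, which is also made in intestine, rose in the average (0.30 ± 0.101, adjusted p = 0.0259). Its changes were 0.12 and 0.09 in females and 0.34 and 0.66 in males, none past the test alone, and its second probe set averaged 0.33. Apoa2, Apoc2 and Apoc3 were not called, at -0.02, -0.07 and -0.01. Apoa1, Apoc3, Apoa4 and Apoa5 are neighbours on chromosome 9, and of these Apoa1 and Apoa5 fell in the average while Apoa4 rose.

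The remaining members are carriers and glycoproteins. Apoh, a glycoprotein that binds phospholipids, fell on day 2 in both sexes: in females from 14.24, 14.24, 14.25 and 14.26 to 14.08, 14.09, 14.12 and 14.16 (-0.14 ± 0.034, adjusted p = 0.00539, limma), and in males from 14.24, 14.25, 14.29 and 14.31 to 14.13, 14.13, 14.14 and 14.15 (-0.14 ± 0.034, adjusted p = 0.00707). Treated arrays of Apoh lay below all controls on day 7 too, with changes of -0.076 and -0.085 that did not pass. Ahsg (fetuin A, an inhibitor of calcification) fell in males on day 2 from 13.90, 13.91, 13.91 and 13.92 to 13.55, 13.71, 13.75 and 13.80. Its change there was -0.21 ± 0.050 (adjusted p = 0.00474), and without treated replicate 1 it lost its call (adjusted p = 0.0786). Vtn (vitronectin, of cell adhesion) fell in the average by 0.13 ± 0.023 (adjusted p = 1.11e-05). Ambp, at -0.00, was not called.

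Of the 4 carriers measured, Rbp4, which carries retinol, fell in the average (-0.07 ± 0.020, adjusted p = 0.0141, limma). Alb, albumin, gave -0.03 ± 0.015 (adjusted p = 0.112), and its 96 arrays ran from 14.70 to 14.90. Ttr (transthyretin) gave -0.02 and Cp (ceruloplasmin, a copper carrier) 0.07, neither called. Members of the whole list averaged between 10.64 (F11) and 14.80 (Alb), close to the top of the scale for several. The 13 members with a mean above 14 had a median change of -0.03, with 6 falls and 0 rises. The 11 between 13 and 14 had a median change of -0.14, with 10 falls and 0 rises. For the dimmer members, 9 had a mean between 12 and 13 and a median change of -0.07 (3 falls and 2 rises), and 5 had a mean below 12 and a median change of -0.25 (4 falls and 1 rises). Over all genes, 9.42% fell and 8.27% rose in this average. Genes outside the list were not split by level, so the counts by level are not read as particular to the members. Some members with a mean above 13 had further, dimmer probe sets. Their averages at 150 were -0.07 to -0.09 for Apoa1, -0.03 to -0.08 for Ttr and 0.00 to 0.22 for Cp. For Vtn the average was -0.20, for Apoh -0.28, for Serpinf1 -0.13, for Kng1 -0.11 and for Apob 0.29. Whether signals near the top of the scale understate a change was not tested.

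Differences of the response between sexes or days were tested directly. No member was called: for females minus males, 0 of 38 on day 2 (0.0055% of all genes) and 0 on day 7 (0.0879%), and for day 7 minus day 2, 0 in females (0.874%) and 0 in males (0.132%). At an unadjusted p below 0.05, limma called 1, 0, 1 and 0 members, against 3.58%, 4.63%, 8.16% and 9.35% of all genes. The falls of F9 in females differed by 0.31 ± 0.097 between the days (day 7 less lowered; adjusted p = 0.151). The rises of F10 differed by -0.14 ± 0.094 and -0.17 ± 0.094 between the sexes, and those of Apoa4 by -0.23 ± 0.286 and -0.56 ± 0.286 (females minus males, days 2 and 7; adjusted p between 0.997 and 1). With errors of this size beside the changes themselves, neither equal nor unequal responses of the sexes were shown.

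The next question was at which dose changes appeared. At 75, 7 members fell and 2 rose on average (3.56% and 5.36% of all genes): F2, F5, F11, Proc, Serpinf1, Apoh and Rbp4 were lower, F10 and Cp higher. Centring each array on its median turned the split of all genes from 647 falls and 976 rises to 1587 and 796 and gave 19 falls and 1 rise among the members, and quantile normalization gave 979 and 869 over all genes and 8 and 2 among the members. F5 was -0.22 ± 0.044 (adjusted p = 0.000392, limma) at 75 against -0.35 at 150. Without the 2 doubted libraries the same 7 fell and 3 rose, F7 being added (8.68% of all genes called in either direction). Kupffer cell markers were higher in the same average: 12 of 12 lay above 0, with a median of 0.41, and 8 rose (7 without the doubted libraries); their part in the changes at 75 was not tested. In single comparisons at 75, F2 fell in females on day 2 (-0.15 ± 0.038, adjusted p = 0.0367; 0.451% of all genes changed in either direction) and F10 rose in males on day 2 (0.29 ± 0.067, adjusted p = 0.0164; 0.44%). Without the doubted libraries F10 gave 0.37 (adjusted p = 0.000218, limma) there, and Apoh also fell (-0.16, adjusted p = 0.0132). In that fit 0.715% of all genes changed in either direction. No member was called at 75 on day 7 in females (0.764%) or males (0.247%), where 8 and 2 had an unadjusted p below 0.05, as did 11.6% and 8.64% of all genes.

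At 15 mg/kg-day and below, 0 members were called in any of 12 comparisons. The share of all genes called at 15 was 0.022% in females on either day, 0.0385% in males on day 2 and 0.011% in males on day 7; at 1.5 it was 0 in each, and at 0.15 it was 0.0055% in males on day 7 and 0 elsewhere. Of 456 tests of members at these doses, 8 had an unadjusted p below 0.05 (1.75%, against 5.06% over all genes); without the doubted libraries 7 had (1.54% against 5.08%), 0 members were called, and 0.0275% of all genes were called at 15 in males on day 2. Across the 6 doses in rank order, the slope was negative and called for 14 members in females on day 2 (4.19% of all genes; 0 positive, 4.54%), 7 in females on day 7 (1.99%; 0 positive, 2.36%), 6 in males on day 2 (2.91%; 2 positive, 3.13%) and 1 in males on day 7 (1.39%; 1 positive, 3.07%). Without the doubted libraries 5 slopes were negative and 2 positive in males on day 2, Apob dropping out (6.52% of all genes called in either direction). Calls in males on day 7, 2 in all as deposited, became 4 after quantile normalization and 10 with arrays centred on their median. Those in females on day 7 became 2, and those in males on day 2 became 3, when the 24 arrays of that sex and day were fitted alone; the mean of all probe sets gave 5 in males on day 2. The steepest called slope in each comparison, in log2 per dose step, was -0.10 for F11, -0.08 for C8a, -0.08 for F11 and -0.06 for F5. F5 means in females on day 2 were 11.98, 12.06, 12.11, 11.98, 11.78 and 11.55 from dose 0 to 150, below the level at dose 0 at the 2 highest doses.

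Untreated livers differed between the sexes in several members. On day 2, 3 were higher and 1 lower in females (1.09% and 0.962% of all genes), and on day 7, 5 were higher and 3 lower (4.63% and 2.08%). C9 was higher in males on both days. Its levels on day 7 were 12.89, 13.01, 13.40 and 13.44 in females and 13.88, 13.88, 13.95 and 14.07 in males, a difference of -0.76 ± 0.128 (adjusted p = 1.59e-05, limma); on day 2 it was -0.47 (adjusted p = 0.0276), a call lost without female replicate 1 or male replicate 1 or 4 (up to 0.199). C8a on day 7 was 12.55, 12.61, 12.75 and 12.83 in females and 13.19, 13.28, 13.29 and 13.32 in males (-0.59 ± 0.136, adjusted p = 0.00256). C8b, its neighbour on chromosome 4 and partner in the same complement subunit, was 11.11, 11.29, 11.30 and 11.37 against 11.62, 11.72, 11.84 and 11.97 (-0.52 ± 0.130, adjusted p = 0.00546). None of these groups overlapped between the sexes on day 7. The male mean was above the female mean in 12 of 12 pairs of dose and day for C9, C8a and C8b, whereas Hc differed in both directions. C6, another component of the pore and not one of the 38, differed by -2.28 ± 0.253 on day 2 and -2.80 ± 0.253 on day 7.

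Apoa4 was the member with the largest excess in females. On day 7 it was 12.19, 12.45, 12.78 and 12.84 in females and 11.25, 11.44, 11.65 and 11.79 in males, a difference of 1.03 ± 0.203 (adjusted p = 0.000242, limma). On day 2 the difference was 0.83 (adjusted p = 0.01), a call lost without male replicate 1 (adjusted p = 0.0558). F7 was 0.29 higher in females on day 2 and 0.36 on day 7 (adjusted p = 0.0215 and 0.000674), and Kng1 0.24 and 0.23 (adjusted p = 0.0329 and 0.0227). The day 2 calls were lost without any of 4 arrays for F7 (female replicates 1 and 4, male replicates 2 and 4; up to 0.151) and 5 for Kng1 (the same 4 and male replicate 3; up to 0.17). Apoa5 and Ahsg were called higher in females on day 7 (0.26 and 0.16, adjusted p = 0.0212 and 0.0304), Apoa5 not without female replicate 1 or 4 or male replicate 2 or 4 (up to 0.0797). Female means of Apoa4, F7 and Kng1 lay above male means in 12 of 12 pairs of dose and day. These counts of pairs, and those of the complement genes, were the same without the doubted libraries. With 1 array left out, 1 to 4 members were called between the sexes on day 2 and 5 to 9 on day 7.

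**Figure D4:**
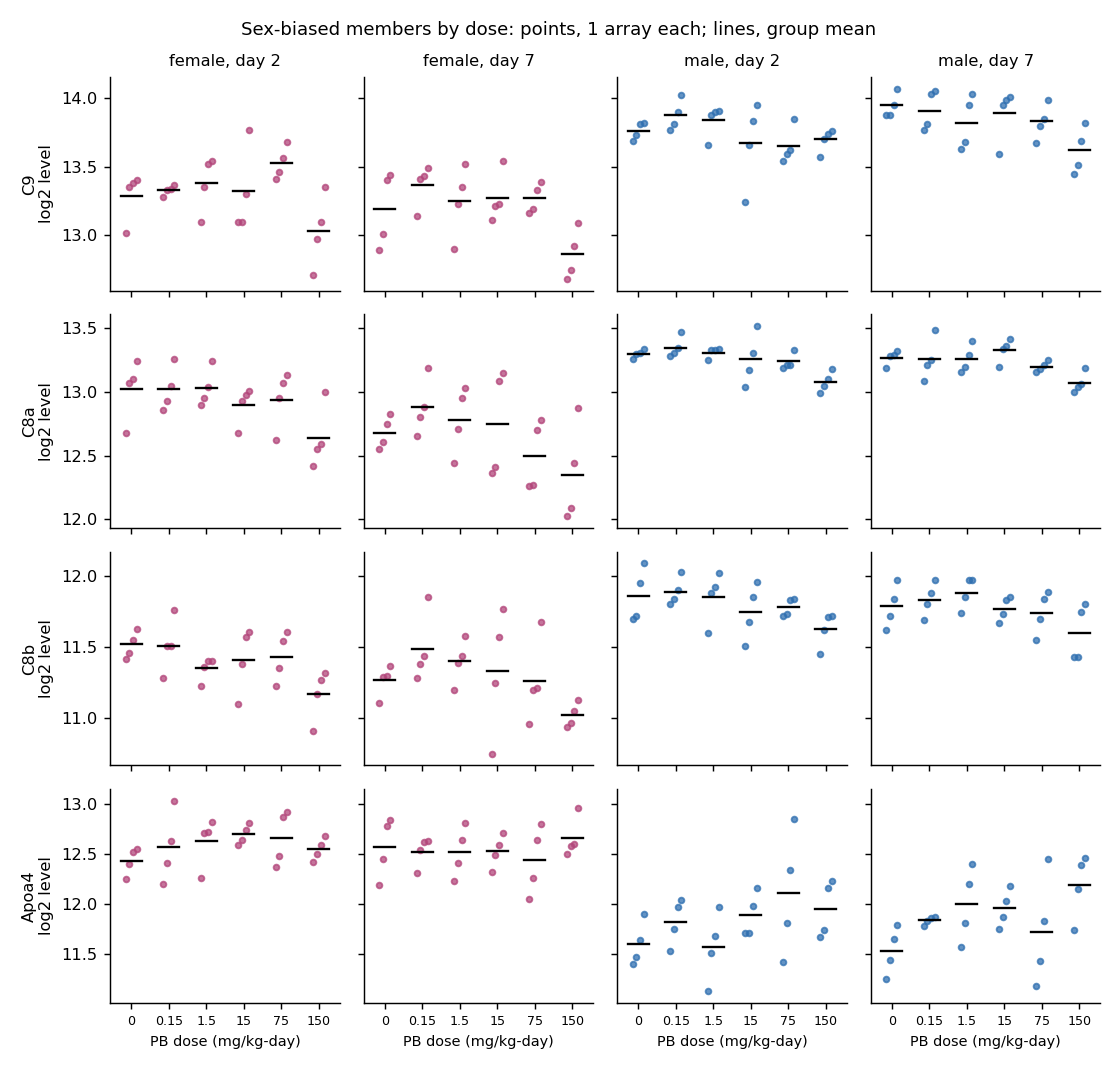
Log2 level of C9, C8a, C8b and Apoa4 (rows; points are single arrays sorted within a group, lines group means) at 6 PB doses in mg/kg-day, by sex and day (columns). The complement genes sit higher in the male panels and Apoa4 in the female panels; at dose 0 on day 7, C9 averages 13.19 in females and 13.95 in males.

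Genes around the plasma proteins were described by lists that are not members. Over all genes, 9.42% fell and 8.27% rose in the average at 150, with a median of -0.01. Of 49 other secreted hepatocyte proteins measured, 19 fell and 3 rose in the average at 150, with a median of -0.09. Itih2, a heavy chain that stabilises hyaluronan, changed by -0.41, -0.52, -0.38 and -0.49 in the 4 comparisons, each called, and Mug1, a protease inhibitor, fell by 0.40 on average. Lect2 (0.50) and Serpina6, the corticosteroid carrier (0.60), rose, as did Pros1 (0.23). Among 25 transcription factors of plasma protein genes, 7 fell and 0 rose: Ppara fell in each comparison (average -0.60), and Nr1i3 (CAR itself), Foxa3, Onecut2, Hlf, Rxra and Hnf4a in the average (-0.62, -0.50, -0.27, -0.19, -0.17 and -0.12).

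Of 52 genes of translocation, folding, glycosylation and export, 17 rose and 1, Sec63, fell in the average (8.27% and 9.42% of all genes). Their median was 0.07, with 13 below 0. In single comparisons 2 to 4 of them rose (1.52% to 3.32% of all genes). In males on day 2 the median was -0.01, with 25 above and 27 below 0. Sar1b, the coat GTPase needed to export large lipoproteins, rose in all 4 comparisons. In males on day 2 it went from 12.23, 12.23, 12.23 and 12.25 to 12.64, 12.64, 12.72 and 12.75, with no overlap (0.45 ± 0.060, adjusted p = 8.83e-08, limma). Mttp, which loads apolipoprotein B with lipid, rose in 3 of 4 comparisons and by 0.29 ± 0.042 on average (adjusted p = 1.11e-07); in females on day 7 it gave 0.21 (adjusted p = 0.222). Of the 5 vitamin K genes, Nqo1 (0.75) and Vkorc1l1 (0.23) rose and Vkorc1 fell (-0.10), while Ggcx, the carboxylase, was not called. Of 8 clearance receptors, Scarb1, Lrp1, Fcgrt and Asgr1 fell (-0.77, -0.39, -0.16 and -0.13) and Tfrc rose (0.92).

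**Figure D5:**
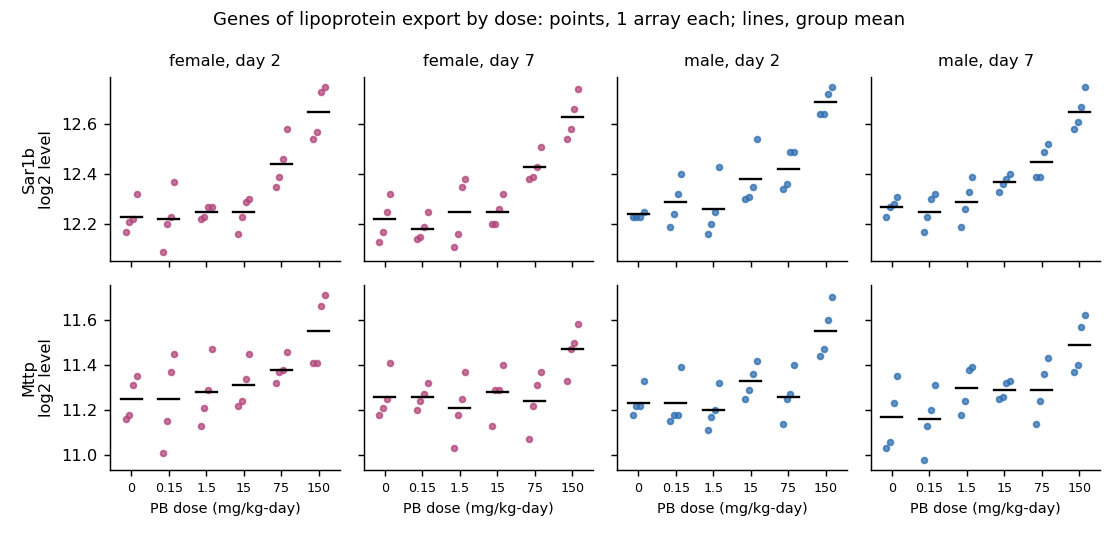
Log2 level of Sar1b and Mttp (rows; points are single arrays sorted within a group, lines group means) at 6 PB doses in mg/kg-day, by sex and day (columns). Sar1b averages between 12.22 and 12.27 at dose 0 and between 12.63 and 12.69 at 150 in the 4 panels.

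Markers of cell types were measured beside these changes, in an average where 9.42% of all genes fell and 8.27% rose. Of 10 hepatocyte enzyme genes outside the list, 4 fell in the average (Tdo2, Cyp2e1, G6pc and Pck1). All 10 of 10 lay below 0, with a median of -0.10. Their mean level ran from 12.56 to 12.86 over the arrays at dose 0 and from 12.41 to 12.69 at 150. It did not overlap in females on day 7 (12.60 to 12.79, then 12.41 to 12.56). Nor did it in males on day 2 (12.71 to 12.83, then 12.45 to 12.67). It overlapped in females on day 2 and males on day 7. Of 10 stellate markers 5 fell (mean level 8.98 to 9.40 at dose 0, 8.67 to 9.28 at 150), and of 11 endothelial markers 3 fell (7.70 to 8.20, then 7.75 to 8.21). Of 12 Kupffer markers 2 rose, and all 12 lay above 0 in the average. All 12 lay above 0 on day 7 in both sexes and below 0 in males on day 2. In females on day 2, 7 lay above 0 and 5 below. Their mean levels ran from 8.58 to 10.24 at dose 0 and from 8.85 to 10.02 at 150. In males on day 7 these levels did not overlap (8.58 to 9.24, then 9.45 to 10.02). The median change there was 0.66, and 3 of 12 rose (2.2% of all genes). Levels overlapped in the other groups of sex and day. S100a8, a neutrophil gene, rose by 2.52, as the only one of 7 neutrophil markers, and Cela1 and Fabp2 fell, out of 8 intestinal and pancreatic genes. In that average no cholangiocyte, lymphocyte, red cell, gallbladder or fat marker was called (18 measured); in females on day 7 alone, Alas2, of the red cell list, rose by 1.03. The part of these shifts in the results was not tested.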

How the data were processed

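Liver RNA of 96 samples was hybridised to 1 array each. The authors deposited log2 values, already normalized between arrays; their normalization method was not given in the sources used here. Per the labels' protocols, RNA was extracted with Trizol, amplified and labelled with biotin. Of 45101 probe sets, 64 controls were left out, 34945 had 1 gene symbol in the platform annotation, 932 had several and 9160 had none. Each of 18193 genes was represented by its probe set with the highest mean. All 24 group means were fitted in limma 3.58.1 (R 4.3.3) over 96 arrays, with moderated variances and Benjamini-Hochberg adjustment over all genes; an adjusted p below 0.05, two-sided, was called. A trend is the slope over dose rank. The 4 arrays per group limit the precision. Selected for description were the members with the smallest adjusted p in each comparison, up to 6 falls and 4 rises at 150 and 8 in the average. Between the sexes, up to 6 were selected by size of difference. Array values are given for most of the selected members, but not for Vtn, F7 and Kng1. Other lists give up to 3 genes by adjusted p, and further genes named there were chosen after their values were seen. The members and lists were chosen with earlier results of these data known. The brightness bands and the removal of 2 libraries were chosen after seeing the data. The fit was also run on simulated data with independent normal errors and shifts planted at 150. That simulation held no array-wide shifts or exchanged labels, and nothing here rests on it. Replicate numbers did not pair the samples: correlations of same-numbered deviations at 0 and 150 ran from -0.16 to 0.14 over 16 pairs. Figures were drawn with matplotlib 3.10.9.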

Additional observations from a re-analysis of the deposited data

Results flagged for a closer look

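In 160 groups of 4 arrays, taken from the 20 members selected for description, 6 had an array standing apart from the other 3. This was by Dixon's test on the gap to the nearest value, where chance gives about 1 in 20 groups. In females at 150 on day 7, Apoa5 in replicate 3 was 13.21 against 13.51 to 13.56, and Ahsg in replicate 4 was 13.86 against 13.91 to 13.92. In males at 150 on day 7, Apoe in replicate 2 was 14.37 against 14.53 to 14.55. In untreated females, Apoh in replicate 3 on day 7 was the highest, 14.30 against 14.27 in the others, and C9 in replicate 1 on day 2 was 13.02 against 13.35 to 13.40. In untreated males on day 2, F10 in replicate 2 was 12.55 against 12.68 to 12.71.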

How the results depend on the processing

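Of 450 checks of named results under alternatives other than leaving out 1 array, 402 kept direction and call, 47 kept direction but lost the call (18 of them with 8 arrays fitted alone, 15 with 24 arrays) and 1 reversed: Apob in males on day 2, at 0.389 as the mean of all its probe sets. With 1 array left out, 422 of 480 kept the call and 58 lost it. The 8 results of the average at 150 kept it whichever array was left out, so all 58 losses were elsewhere. For each replicate number of control or treated arrays left out, 4 to 7 of 18 calls in single comparisons at 150 were lost. Between the sexes at dose 0, 0 to 4 of 10 calls were lost for each replicate number. The replicate block changed 0 of 50. Counts of members called moved as follows, given without the share of all genes and so not read as particular to the members. The causes of these moves were not tested. At 150 in males on day 7, lower calls were 2 with the mean of all probe sets, without dim genes, after quantile normalization, after centring, with array weights and with a robust prior by mean; higher calls there were 2 without dim genes, 2 after quantile normalization, 1 with the robust prior and 1 without the 2 doubted libraries. The mean of all probe sets gave 3 lower in males on day 2 and 5 slopes there; quantile normalization gave 4 slopes in males on day 7. Centring gave 2 lower in females on day 7, 10 slopes in males on day 7, 20 calls in the average at 75 and 5 between the sexes on day 7. With the 24 arrays of a sex and day, lower calls at 150 were 4 and 1 in females on days 2 and 7, and 2 lower and 0 higher in males on day 2; slopes were 2 in females on day 7 and 3 in males on day 2. With 8 arrays, lower calls were 0, 0, 1 and 0 and higher calls 0. Leaving out 1 array gave 7 to 13 lower in females on day 2, 0 to 3 in females on day 7, 2 to 6 lower and 0 to 1 higher in males on day 2, 0 to 2 lower and 0 to 2 higher in males on day 7, and 1 to 4 and 5 to 9 between the sexes on days 2 and 7. The average at 150 stayed at 22 to 23 lower and 2 to 3 higher.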
